A study of Caenorhabditis elegans with 12 samples.

Results

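The SCP-like genes of Caenorhabditis elegans code for secreted proteins of a superfamily named after cysteine-rich secretory proteins, antigen 5 of insect venom and pathogenesis-related protein 1 of plants. Members were taken as every gene whose symbol is scl- or vap- followed by a number, plus lon-1, with a probe on the array. There were 27 of them among 19816 genes with a probe, and 2 further symbols, vap-1 and the pseudogene scl-4, had no probe. Members were chosen by name and the presence of a probe, and by no measured value beyond that. The family itself was taken up with the rise of scl-24 after 12 h at 25 °C already known from these data, so the 12 h signal of scl-24 is given as a description.

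Proteins of this superfamily share a folded domain held together by disulfide bonds and are exported from the cell. Relatives are known as abundant secreted products of parasitic nematodes and as allergens in venoms. In C. elegans, lon-1 acts in the hypodermis, where its loss makes worms long and where signalling by the BMP ligand DBL-1 represses it. The gene scl-1 has been reported as a target of the FOXO factor DAF-16 that affects lifespan, and vap-1 marks the sheath glia of the amphid sense organ.

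Total RNA of well-fed adults was measured on 12 single-colour arrays, 3 in each of 4 groups. N2, the Bristol wild-type strain, was kept at 15 °C, or moved from 15 °C to 25 °C for 3 h or for 12 h. The mutant daf-2(e1370), with a lesion in the insulin-like receptor, was moved from 15 °C to 25 °C for 12 h, and no daf-2 group at 15 °C was analysed here. Neither the exact age of the worms nor whether replicates were separate cultures is given. The p-values therefore reflect the variation among these 12 arrays, which may be technical, and age cannot be told apart from time at 25 °C.

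Replicates are called sets A, B and 1 after the titles; the source names number both A and 1 as replicate 1 and B as replicate 2. Each set was 1 slide that held all 4 groups. A spot is called well above background by a flag of the image extraction software. Of 43603 probes, 24171 to 26639 had that flag per array in sets A and B, and 35190 to 36971 in set 1, whose slide had a scan day of its own. Arrays of the same group had correlations of 0.919 to 0.983 over genes.

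Detection divided the family. Of the 27 members, 8 were well above background on all 12 arrays, namely lon-1, scl-2, scl-3, scl-5, scl-6, scl-14, scl-27 and vap-2. Among all genes with a probe, 11007 of 19816 were. By group, the members with that flag on each of the 3 arrays numbered 8 at 15 °C, 8 after 3 h, 10 after 12 h and 12 in daf-2. The members detected on 0 arrays of a group numbered 10, 6, 5 and 6 in the same order. The 2 further members at 12 h were scl-24 and scl-25, and daf-2 had scl-12 and scl-20 as well. The share of all genes was not taken for each group, and the arrays differed in the number of flagged probes. These counts by group are therefore a description.

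**Figure D1:**
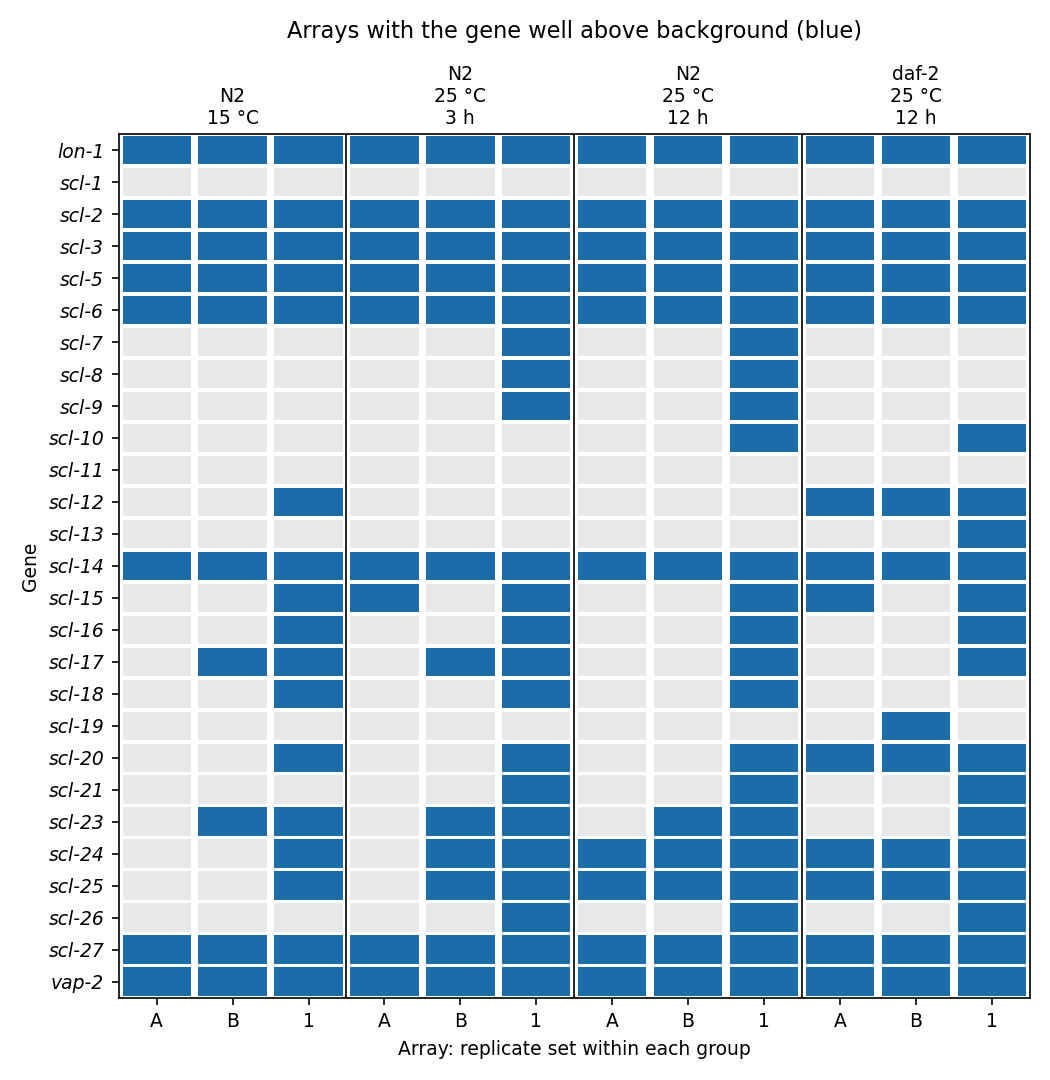
Detection of the 27 SCP-like genes (vertical axis) on each of the 12 arrays (horizontal axis, sets A, B and 1 within each group), with blue for well above background and grey for not. The 8 members at 12 arrays form full blue rows, and many of the remaining blue cells lie in the columns of set 1.

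The other members were dim. For scl-1, the value was −7.16, −6.97 and −9.71 at 15 °C in sets A, B and 1, in log2 units from the 75th percentile of the array, the scale of every level given here. Its values were −7.07, −7.39 and −8.50 after 3 h, −7.15, −7.49 and −9.67 after 12 h, and −7.34, −7.13 and −7.70 in daf-2. It was well above background on 0 of 12 arrays, as was scl-11, so the arrays gave no measure of scl-1 in any group, daf-2 included.

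Of the 15 members left out of the tests, scl-7, scl-8, scl-9 and scl-10 were well above background on 2 arrays each, scl-13 and scl-19 on 1, and scl-18, scl-21 and scl-26 on 3. The pseudogene scl-16 was on 4 arrays, scl-15 and scl-17 on 6 and scl-23 on 7. Detection of these genes followed the set: 12 of the 15 were well above background on at least 1 array of set 1, and 11 on 0 arrays of sets A and B. Between daf-2 and N2 at 12 h, scl-10 was the 1 untested member whose groups did not overlap, with means of −7.11 and −6.08, and it was well above background on 1 array of each group. Among the genes that were tested, 43.2% did not overlap in that comparison.

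Members were concentrated on chromosomes IV and V. In the gene order of assembly WBcel235, 13 members are on chromosome IV, 10 on V, 2 on II and 1 each on III and X. On chromosome IV, 11 family symbols follow each other with 3 other genes among them, in the order scl-9, scl-10, scl-11, scl-1, scl-2, scl-3, scl-4, scl-5, scl-6, scl-7 and scl-8. Of the 10 with a probe, the 4 detected on all 12 arrays (scl-2, scl-3, scl-5 and scl-6) are next to each other apart from scl-4 and 1 other gene. The members on both sides of them were well above background on at most 2 arrays.

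A gene entered the tests when at least 1 group had it well above background on each of its 3 arrays, which left 13482 genes and 12 members. Of these 12, scl-12 and scl-20 were kept only through daf-2, and scl-24 and scl-25 only through the 12 h and daf-2 groups. They had to be higher there to be kept, so counts over the 12 members describe those genes and support nothing about the family. Every comparison used limma, with the Benjamini-Hochberg adjustment across all genes tested and a call at an adjusted p under 0.05. The comparisons of 3 h and 12 h with 15 °C share the 15 °C arrays, and the 12 h arrays enter 3 of the 4 comparisons.

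The first comparisons addressed what changed when N2 was moved from 15 °C to 25 °C. In that move scl-24 and scl-25, next to each other among the members on chromosome V, had the largest differences of the family at both times. The level of scl-24 was −6.16, −6.23 and −5.29 at 15 °C in sets A, B and 1. It was −4.82, −3.44 and −2.15 after 3 h. After 12 h it was −3.13, −2.29 and 0.42. In each set the order was 15 °C, 3 h, 12 h, and the 15 °C arrays did not overlap with those of either later time. At 15 °C scl-24 was well above background on 1 of 3 arrays, after 3 h on 2 and after 12 h on all 3.

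The gene scl-25 had nearly the same profile. Its levels were −7.30, −7.09 and −4.68 at 15 °C and −5.16, −3.73 and −2.15 after 3 h. After 12 h they were −3.29, −2.55 and 0.37. The 12 h and 15 °C arrays did not overlap, while the set 1 array at 15 °C lay above the set A array at 3 h. Over the 12 arrays, which share the group differences and the slides, the signals of both genes correlated at r = 0.99 (rho = 0.99). They are not adjacent, with 94 genes between them. Probe sequences were not compared, so shared signal between the 2 genes was not tested.

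Relative to 15 °C, the log2 difference of scl-24 after 12 h was 4.23 ± 0.87 (SE), or 3.03, 3.94 and 5.70 in sets A, B and 1. Its other probe gave 4.27. Neither scl-24 nor scl-25 was well above background at 15 °C in sets A and B, so the differences of those sets are against dim spots, and set 1 is the 1 set that measured both ends. For scl-25 the difference after 12 h was 4.53 ± 1.06, and 4.01, 4.54 and 5.05 by set. In limma scl-25 had adjusted p = 0.0549 and did not pass. With the set as a replicate block, which takes out the level that the arrays of a set have in common, it had adjusted p = 0.00376 and passed. On the set 1 slide, where both arrays measured the genes, scl-24 ranked 1 and scl-25 ranked 2 from the highest difference among 13420 genes. These ranks are a description too, since the rise of scl-24 was known beforehand.

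After 3 h the log2 difference was 2.42 ± 0.87 (SE) for scl-24, with limma's adjusted p = 0.345, and 2.67 ± 1.06 for scl-25, with adjusted p = 0.423. Neither passed in that fit. With the replicate block scl-25 had adjusted p = 0.0415 and scl-24 had 0.0659. From 3 h to 12 h the log2 difference was 1.80 ± 0.87 for scl-24 (limma's adjusted p = 0.464) and 1.86 ± 1.06 for scl-25 (0.586), positive in all 3 sets for both genes. With the block these had adjusted p = 0.109 and 0.0860.

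In daf-2 the levels of scl-24 were −0.56, −0.93 and −0.03, and those of scl-25 were −0.66, −1.36 and −0.08. The daf-2 arrays of sets A and B were above the N2 12 h arrays of the same sets, and the set 1 array was below its partner, so the groups overlapped. The log2 difference from N2 at 12 h was 1.16 ± 0.87 for scl-24 (limma's adjusted p = 0.343) and 1.12 ± 1.06 for scl-25 (adjusted p = 0.446). By set it was 2.57, 1.35 and −0.44 for scl-24. Within sets A and B alone scl-24 passed, with a log2 difference of 1.96 ± 0.50 and limma's adjusted p = 0.0452. The N2 arrays themselves spread most at 12 h, with an SD of 1.85 for scl-24 and 1.93 for scl-25, against 0.46 and 0.64 in daf-2.

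**Figure D2:**
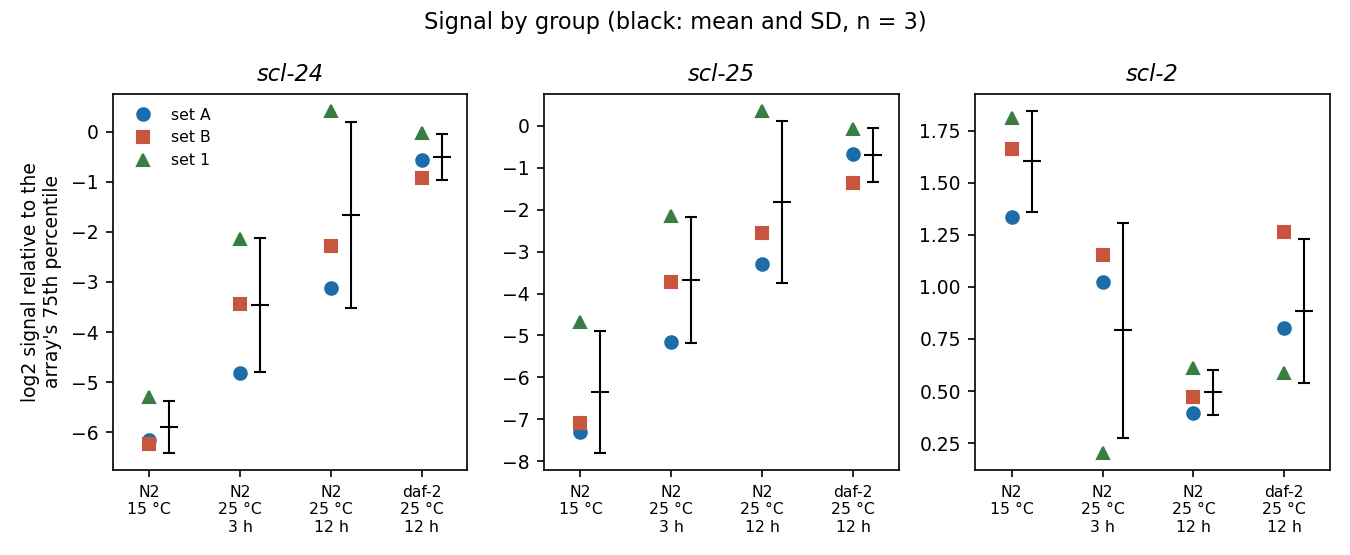
Signal of scl-24, scl-25 and scl-2 on each array (vertical axis, log2 relative to the array's 75th percentile, a separate scale per gene) by group (horizontal axis), with mean and SD of 3 arrays in black. For scl-24 and scl-25 each set climbs from 15 °C through 3 h to 12 h, and scl-2 is highest at 15 °C.

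The gene scl-2, one of those in the chromosome IV run that was detected on every array, went the other way. Its levels were 1.34, 1.66 and 1.81 at 15 °C, 1.02, 1.15 and 0.20 after 3 h, and 0.40, 0.47 and 0.61 after 12 h. All arrays of both later times lay below all 15 °C arrays. The log2 difference after 12 h was −1.11 ± 0.27 (SE), with −0.94, −1.19 and −1.20 in sets A, B and 1. In limma it had adjusted p = 0.0602 and did not pass, and with the replicate block it had adjusted p = 0.0369. After 3 h the difference was −0.81 ± 0.27 with limma's adjusted p = 0.276. In daf-2 the levels were 0.80, 1.26 and 0.59, and the difference from N2 at 12 h was 0.39 ± 0.27 (adjusted p = 0.305).

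After 3 h at 25 °C, 0 of the 12 tested members were called in limma, where 1.04% of all genes were. At an unadjusted p under 0.05 there were 3 (scl-2, scl-24 and scl-25), a level at which the share of all genes was not taken. With the replicate block 1 was called, scl-25, where 327 of 13482 genes were. After 12 h 1 member was called, scl-24, where 2.67% of all genes were (1.88% higher and 0.786% lower). The rise of scl-24 was known when the family was taken up, so its call is a description and supports nothing. The same holds for scl-25, whose signal ran with that of scl-24. With the replicate block 3 were called, scl-24 and scl-25 higher and scl-2 lower, where 1024 of 13482 genes were. The call of scl-24 was lost under 11 of 20 alternatives. Among them were the fits without any single 15 °C array, without the 12 h array of set B or of set 1, and without set A or set B. The log2 difference ran from 3.18 to 4.96 over the fits that left out an array or a set, and was 2.52 with normexp background correction and quantile normalization together.

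Between 12 h and 3 h 0 members were called, against 2.05% of all genes, and 0 had an unadjusted p under 0.05. Groups at 12 h and 15 °C did not overlap for 3 members (scl-2, scl-24 and scl-25), and for 20.7% of all genes. The median log2 difference over the 12 members was 0.00 after 3 h, −0.07 after 12 h and −0.03 from 3 h to 12 h, beside 0.02, 0.03 and −0.02 over all genes tested. Apart from scl-2, scl-24 and scl-25, the members had log2 differences from 15 °C between −1.03 and 0.28 after 3 h and between −1.04 and 0.69 after 12 h.

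**Figure D3:**
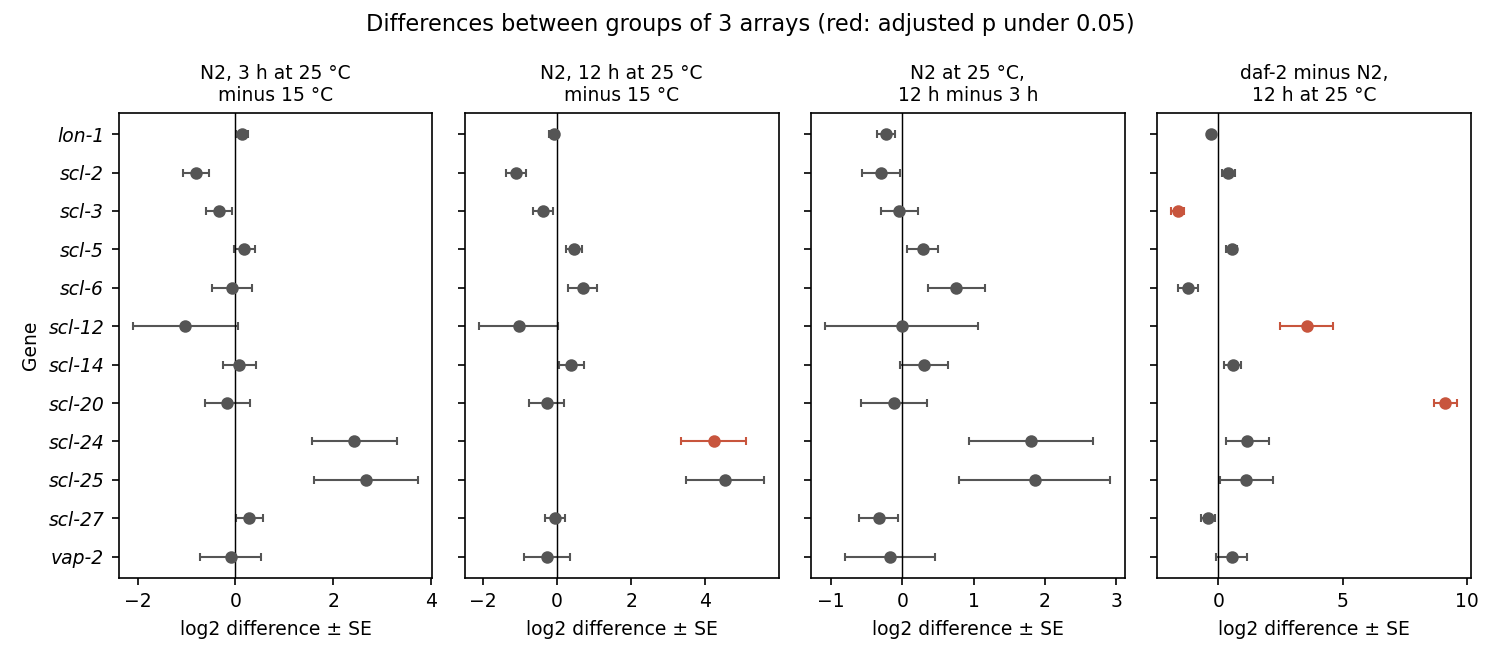
Log2 difference with its SE (horizontal axis, a separate scale per panel) for the 12 tested members (vertical axis) in the 4 comparisons, each between groups of 3 arrays. Red points are the calls: scl-24 after 12 h, and scl-3, scl-12 and scl-20 in daf-2. Those of scl-24, scl-12 and scl-20 are descriptions, given how these genes were chosen or kept.

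The last comparison addressed how daf-2 differed from N2 when both had spent 12 h at 25 °C. The gene scl-20 had the widest difference of the 12 tested members. Its levels were −7.31, −7.10 and −5.92 in N2 at 15 °C. After 3 h they were −7.17, −7.49 and −6.16, and after 12 h −7.21, −7.56 and −6.41. In daf-2 they were 2.33, 2.26 and 1.59. All 3 daf-2 arrays were far above all 9 N2 arrays, and within N2 the 3 groups overlapped.

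The log2 difference of scl-20 between daf-2 and N2 at 12 h was 9.12 ± 0.46 (SE), with limma's adjusted p = 5.19e-06. By set it was 9.54, 9.82 and 8.0. In N2 at 12 h scl-20 was well above background on the set 1 array alone, so the differences of sets A and B are taken against dim spots and their size, like that of the mean, depends on the background. On the set 1 slide both arrays had it well above background, though the N2 spot was dim there too, at −6.41. The difference of 8.0 on that slide ranked 3 from the highest among 13437 genes. With normexp background correction and quantile normalization together the log2 difference was 6.66, and the call was kept under all 19 alternatives that included the gene, with adjusted p from 1.14e-07 to 0.00862. Since scl-20 entered the tests only through daf-2, where it had to be high, the p-values after the filter and the rank are descriptions. Without a filter limma's adjusted p was 1.78e-05. The fit of the authors' series table used only probes with a value on all 12 arrays, and scl-20 was not among its genes.

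On chromosome V scl-19 lies beside scl-20 with 0 genes between them, but it stayed dim in daf-2. It was well above background on 1 of 12 arrays, the daf-2 array of set B. Its levels in daf-2 were −7.48, −4.84 and −7.79, and in N2 at 12 h −6.81, −7.51 and −8.77. The groups overlapped.

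The gene scl-12 was also higher in daf-2, from a level near the limit of the arrays. At 15 °C it was −6.50, −6.26 and −6.97, and after 3 h −5.62, −7.44 and −9.75. After 12 h it was −7.22, −5.82 and −9.81, with 0 of 3 arrays well above background. In daf-2 it was −3.91, −3.75 and −4.50 with all 3 arrays well above background, and these lay above every N2 array.

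Since scl-12 was not well above background in N2 at 12 h, its rise is a bound of at least 3.74-fold. The bound sets the daf-2 mean against, on each N2 array, the lowest signal that counted as well above background or the signal of scl-12 itself where that was higher. It holds for this processing and not for every other one, since the log2 difference was 1.00, below the bound, with normexp background correction and quantile normalization together. The measured means were −4.06 in daf-2 and −7.61 in N2, a log2 difference of 3.56 ± 1.07 (SE) with limma's adjusted p = 0.0390. The gene entered the tests only through daf-2, where it had to be high, so that p-value is a description. Without a filter limma's adjusted p was 0.0676. The call was lost under 9 of 19 alternatives. Without the N2 array of set A or set 1 adjusted p was 0.0878 and 0.0918, without the daf-2 array of set A, B or 1 it was 0.0869, 0.101 and 0.0725, and without set A or set B it was 0.185 and 0.122. The log2 difference by set was 3.30, 2.07 and 5.30.

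Its neighbour scl-13, with 0 genes between them, was well above background on 1 array, that of daf-2 in set 1. The scl-13 levels were −5.04, −5.55 and −6.93 in daf-2 against −6.92, −7.21 and −8.22 in N2 at 12 h. In each set the daf-2 array was the higher one, while the groups overlapped by the set 1 array of daf-2. No test was made on scl-13, since it did not reach detection on all arrays of a group.

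The gene scl-3, in the chromosome IV run, was lower in daf-2. It was −0.26, 0.25 and 0.02 at 15 °C, −0.42, 0.13 and −0.72 after 3 h, and −0.42, −0.09 and −0.63 after 12 h. In daf-2 it was −1.65, −2.09 and −2.29. The daf-2 arrays lay below all 9 N2 arrays, and the N2 groups overlapped. The log2 difference from N2 at 12 h was −1.63 ± 0.26 (SE), so that scl-3 was 3.09-fold lower, with limma's adjusted p = 0.00186. It was −1.23, −2.0 and −1.66 in sets A, B and 1, and the call was kept under all 21 alternatives, with log2 differences from −1.87 to −1.45 and adjusted p from 0.000479 to 0.0393.

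In the same run scl-6 had levels of −2.29, −2.09 and −3.15 in N2 at 12 h and −2.94, −4.13 and −4.14 in daf-2. The set 1 array of N2 lay below the set A array of daf-2. The log2 difference was −1.23 ± 0.40 (SE) with limma's adjusted p = 0.0520, which missed the threshold. With the replicate block limma's adjusted p was 0.0198, though daf-2 and N2 arrays did not deviate together in every set. The neighbouring scl-5 differed the other way by 0.53 ± 0.22 (adjusted p = 0.104), and its other probe gave 0.52. For scl-2 the difference was 0.39, as above. The 4 detected genes of the run thus had differences of both signs, and 1 of them passed.

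**Figure D4:**
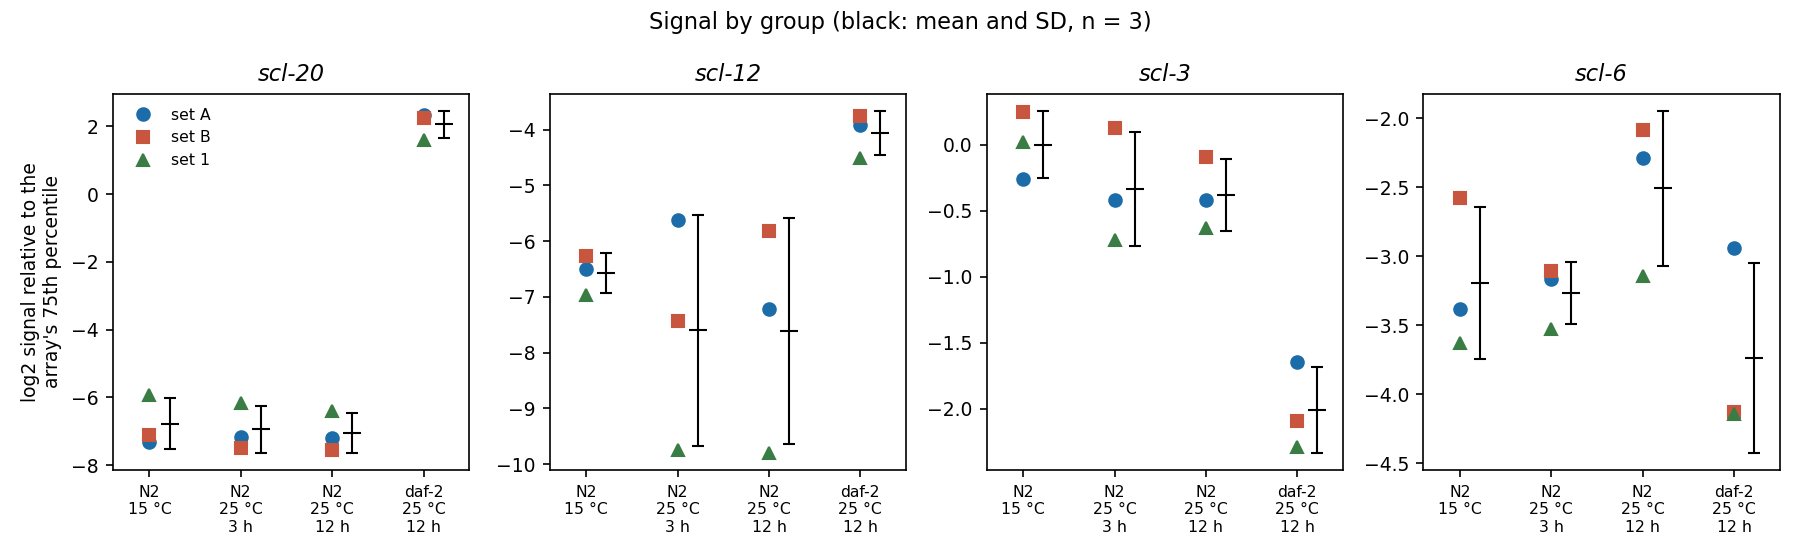
Signal of scl-20, scl-12, scl-3 and scl-6 on each array (vertical axis, log2 relative to the array's 75th percentile, a separate scale per gene) by group (horizontal axis), with mean and SD of 3 arrays in black. For scl-20 and scl-12 the 3 daf-2 arrays lie above all N2 arrays, for scl-3 below all of them, and for scl-6 the groups overlap.

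The hypodermal gene lon-1 varied little. Its levels were 3.58, 3.67 and 3.54 at 15 °C, 3.73, 3.84 and 3.61 after 3 h, and 3.46, 3.51 and 3.54 after 12 h. In daf-2 they were 3.30, 3.27 and 3.10. The daf-2 arrays were the lowest of the 12, without overlap, but the log2 difference from N2 at 12 h was −0.28 ± 0.13 (SE) with limma's adjusted p = 0.130. From 3 h to 12 h the difference was −0.22 ± 0.13 (limma's adjusted p = 0.583), also without overlap. Between daf-2 and N2 43.2% of all genes tested did not overlap, and from 3 h to 12 h that share was not taken.

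The vap-2 gene, one of the venom-allergen-like genes, was set apart by replicate more than by group. Its levels were −1.60, 1.01 and −1.10 at 15 °C, −1.22, 0.36 and −1.14 after 3 h, and −1.13, −0.28 and −1.09 after 12 h. In daf-2 they were −0.25, −0.45 and −0.21. In each N2 group the set B array was the highest, while in daf-2 it was the lowest. The log2 difference between daf-2 and N2 at 12 h was 0.53 ± 0.63 (SE; limma's adjusted p = 0.541), and the N2 differences from 15 °C were −0.10 ± 0.63 and −0.27 ± 0.63 (adjusted p = 1.00 and 0.913).

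A similar excess of set B was seen in scl-17 and scl-23, which were not tested. At 15 °C scl-17 was −6.90, −2.78 and −6.37 in sets A, B and 1, and after 3 h −6.72, −3.34 and −5.17. At 15 °C scl-23 was −7.22, −2.99 and −6.19, and after 3 h −7.01, −3.49 and −5.81. At both times the set B array exceeded the others. In daf-2 scl-17 was −7.03, −6.78 and −6.68 and scl-23 was −6.91, −7.12 and −5.65, with no excess of set B.

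Sperm genes moved with set B in the same way. Over the 35 sperm genes with a probe, the summed linear signal relative to the 75th percentile was 83.9, 1728 and 92.8 in sets A, B and 1 at 15 °C. It was 268, 1609 and 341 after 3 h and 516, 1165 and 149 after 12 h. In daf-2 it was 194, 35.5 and 182, and between 28 and 35 of the genes were well above background on each of the 12 arrays. The median of 11 hypodermis and cuticle genes was also highest in set B at 15 °C (−3.02, −0.01 and −1.91). In whole-animal RNA, fewer cells of a type and less RNA per cell cannot be told apart, and the part of the sperm genes in the set B values of vap-2, scl-17 and scl-23 was not tested.

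**Figure D5:**
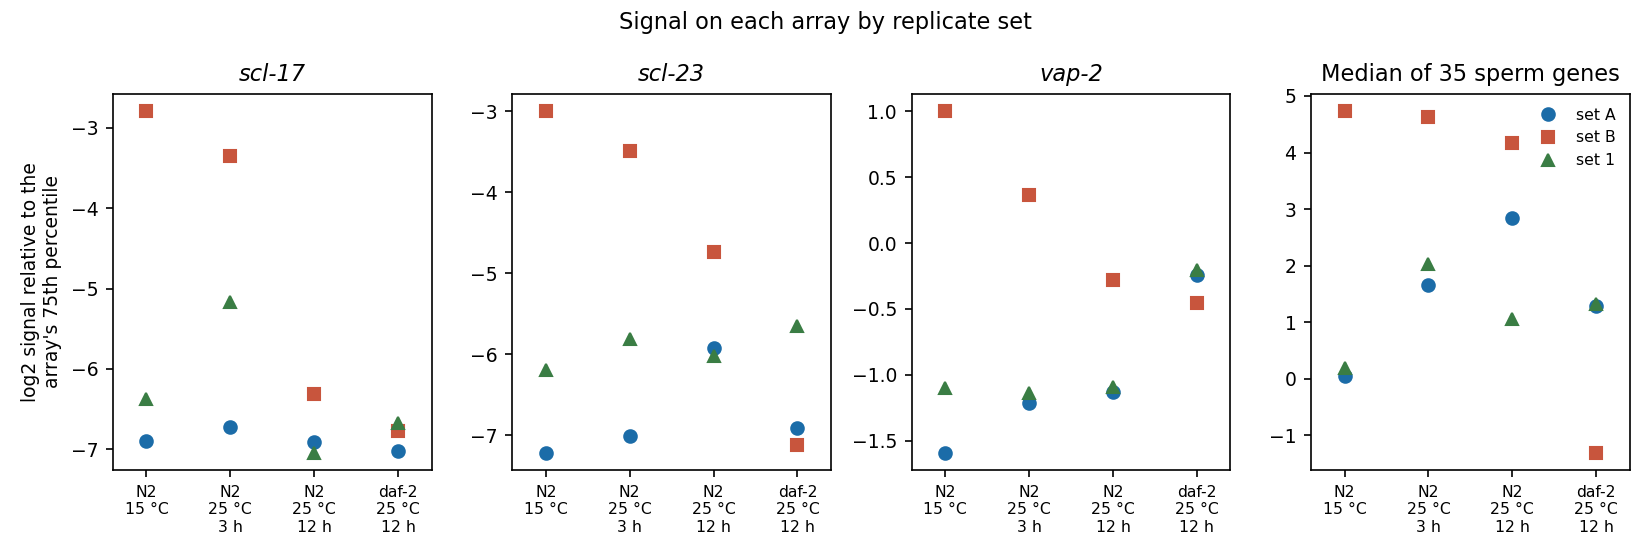
Signal of scl-17, scl-23 and vap-2, and the median signal of 35 sperm genes, on each array (vertical axis, log2 relative to the array's 75th percentile, a separate scale per panel) by group (horizontal axis) and replicate set (symbols). In N2 at 15 °C and after 3 h the set B array is the highest in all 4 panels, and in daf-2 it is not.

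Of the remaining tested members, scl-14 differed between daf-2 and N2 at 12 h by 0.58 ± 0.34 (SE; limma's adjusted p = 0.239) and scl-27 by −0.42 ± 0.27 (adjusted p = 0.286). The daf-2 levels of scl-14 were −2.51, −2.58 and −2.57, all above those of N2 at 12 h (−3.36, −3.38 and −2.66). The second probe of scl-14 was well above background on the set 1 arrays alone. There it was −5.32 at 15 °C, −5.08 after 3 h, −5.67 after 12 h and −5.84 in daf-2. On that slide it was thus lower in daf-2 than in N2 at 12 h, while the probe used was higher (−2.57 against −2.66).

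In all, 3 of the 12 tested members were called between daf-2 and N2, scl-12 and scl-20 higher and scl-3 lower, where 21.9% of all genes tested were called (14.4% higher and 7.46% lower). The members' share is near that of all genes, and scl-12 and scl-20 were tested only because they were well above background in daf-2. Groups did not overlap for 6 of the 12, against 43.2% of all genes. The median log2 difference was 0.53 over the members and −0.14 over all genes, and 8 members had positive and 4 negative differences. Without set 1, 6 members were called, where 2751 of 13482 genes were. Added were scl-5, scl-14 and scl-24, all higher.

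Marker lists gave the setting of these values. Of 12 genes known to be raised in daf-2 mutants through DAF-16, 10 were higher in daf-2, with a median log2 difference of 2.28. They included icl-1 of the glyoxylate cycle (2.10), the lysozyme lys-7 (2.46), the catalase ctl-1 (1.52) and dod-6 (1.41). In N2 after 12 h at 25 °C, 0 of these 12 were higher and 1 lower than at 15 °C. Of 11 hypodermis and cuticle genes 4 were called higher in daf-2 than in N2 and 0 lower. The 4 were the cuticle collagen dpy-7 (log2 difference 4.30), the hedgehog-related genes wrt-2 (4.88) and wrt-1 (3.60), and the nuclear receptor nhr-25 (2.14). Of the 11, 5 had negative differences, and the median was 0.17. The summed linear signal of the list was 59.6 to 84.4 in daf-2, below the 95.5 to 96.6 of N2 at 12 h. The part of these list differences in the values of scl-3, scl-12 and scl-20 was not tested.

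Of 19 genes listed for DBL-1 signalling and body size, the pathway that acts on lon-1, 2 were called higher in daf-2 than in N2. They were the spectrin sma-1 (log2 difference 1.39) and the tetraspanin tsp-14 (1.67), where 14.4% of all genes were called higher. Of the 19, 9 had negative differences, and the median was 0.11. Within N2 0 of them were called in any comparison. Of 7 tested amphid sheath genes, the setting for vap-1, 2 were higher in daf-2 (the homeodomain gene ttx-1, 2.18, and the Patched-related daf-6, 1.67) and 1 lower (F16F9.3, −2.33), and 0 were called within N2. Of 8 pharyngeal gland genes 3 were higher in daf-2 (the bHLH factor hlh-6, 1.86, dod-6, 1.41, and kel-1, 0.86) and 0 lower. Of the 8, 3 had negative differences, and the median was 1.13. The gene dod-6 is also in the DAF-16 list. Of 11 intestine genes 3 were higher and 3 lower. For 31 sperm genes the median difference was −2.13, with 1 lower and 0 higher. The sets differed here. The median signal of the 35 sperm genes with a probe was 2.84, 4.17 and 1.055 in N2 at 12 h in sets A, B and 1. In daf-2 it was 1.28, −1.32 and 1.32, so it was lower in sets A and B and higher in set 1.

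Within N2 the early embryo list had differences of both signs after 3 h and only positive ones after 12 h. Of its 10 tested genes, 9 had a negative log2 difference from 15 °C after 3 h, none of them called, and the median was −0.62. The tenth, the zygotic gene sdz-6, was called higher, by 2.04. After 12 h the median was 0.77, 0 of the 10 had a negative difference, and sdz-6, higher by 4.22, was the 1 call. At 12 h 6 of the 10 were higher than at 3 h and 0 lower, with a median log2 difference of 1.41. Between daf-2 and N2 at 12 h sdz-6 differed by −2.99, and hlh-1, the MyoD homolog, was higher by 1.60. The summed signal of the 11 list genes with a probe was 1.86 to 2.79 at 15 °C, 1.33 to 1.88 after 3 h, 3.60 to 4.89 after 12 h and 4.37 to 7.13 in daf-2. Its part in the rise of scl-24 and scl-25 was not tested.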

How the data were processed

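The family, its members and the marker lists were chosen with earlier results of these data known. Per the file headers, spots were read with Agilent Feature Extraction 10.10.1.1. The deposited processed signal is an intensity on a linear scale, background-subtracted by that software and not scaled between arrays. The deposited flags, 0 or 1, mark saturated, uneven and detected spots. The authors' deposited series table holds intensity values for 24939 to 35344 probes. They differ from the processed signal by 1 factor per array, with at most 0.0373 in log2 left over, and how its probes were chosen was not given in the sources used.

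Of 45220 spots per array, 1417 controls were left out, 0 were saturated, and 28 to 146 uneven ones were set to missing. Log2 processed signals had each array's 75th percentile subtracted, and repeated spots were averaged per probe. Probes were matched through a table of assembly WBcel235, used for names and gene order only since the array design cites an older build. That gave 1 gene for 34325 of 43603 probes (30983 by sequence name, 3342 by accession) and 19816 genes. The probe with the highest mean signal among those kept stood for a gene. Precision is limited by the 3 arrays per group.

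A limma fit (version 3.58.1, R 4.3.3) over all 12 arrays, with a mean for each group, gave the comparisons, and its code was tested on simulated data. Python 3.11.15 with matplotlib 3.10.9, numpy 2.4.6 and pandas 2.3.3 made tables and plots. Members called in any comparison and scl-1, vap-2 and lon-1 were to be named with every array; scl-2, scl-6, scl-17, scl-19, scl-13, scl-23 and scl-25 were named after their values were seen. Up to 4 genes per marker list were named, called ones first and then by mean signal. The lists covered amphid sheath glia, the DBL-1 pathway, genes raised in daf-2 mutants through DAF-16, sperm, intestine, hypodermis and cuticle, early embryo and pharyngeal gland.

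Deviations from group means correlated within sets at 0.449 to 0.894 in the N2 comparisons, so these arrays are paired by set. The slide and the replicate sample cannot be told apart as the source of that pairing. In the daf-2 comparison the values were 0.389, −0.399 and 0.129 for sets A, B and 1. These have both signs, so the same pairing was not seen there, which limits the replicate block in that comparison. A group kept its slide position in every set, and the effects of position and group cannot be told apart. Alternatives were quantile normalization, median centring, normexp (offset 50) together with quantile normalization, the series table, other filters and probe rules, a trended robust prior, the replicate block, fits of the groups compared only, and fits without single arrays or sets.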

Additional observations from a re-analysis of the deposited data

How the results depend on the processing

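The number of members called between 12 h at 25 °C and 15 °C was 1 of 12, where 360 of 13482 genes were called. It was 2 with quantile normalization and with median centring (scl-24 and scl-25), where 277 and 99 genes were. It was 2 with the trended robust prior (scl-24 and scl-2) and 2 within sets A and B, where 333 and 284 genes were. It was 0 with normexp correction and quantile normalization together, without a filter, and in the fit of only the groups compared, and 0 with the other kept probe of scl-5 and scl-24, an alternative chosen after seeing the data. With the replicate block it was 3. Among genes well above background on all 12 arrays, which leaves out scl-24, the 1 call among 8 members was scl-2, where 352 of 11007 genes were called. Leaving out an array or a set gave 0 to 2. After 3 h the count was 0, and 1 with the replicate block; it was 0 between 12 h and 3 h under all 21 alternatives, replicate block included. Between daf-2 and N2 the count was 3 of 12, where 2949 of 13482 genes were called. It was 5 under normexp correction and quantile normalization together, 6 within sets A and B and 4 with the replicate block. All genes called in those fits numbered 3015, 2751 and 5043. With scl-12 not called, it was 2 with median centring and 2 of 27 without a filter. There 1631 of 13482 and 2212 of 19816 genes were called. Among genes well above background on all 12 arrays it was 2 of 8, scl-3 and scl-6, both lower, where 2288 of 11007 genes were called. It was 1 with the series table, whose fit used probes with a value on all 12 arrays and left out scl-12 and scl-20. When an array or a set was left out it was 2 to 6. The causes of these differences were not tested. The calls of scl-20 and scl-3 were kept under every alternative that included them, 19 and 21, and no member with a call changed direction. These alternatives are not all separate checks. The fit within sets A and B and the fit without set 1 are the same. For scl-3, scl-12 and scl-20, with 1 probe each, the other probe rules could not change the log2 difference. The same limit holds for every count of alternatives given above.

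Over all genes the replicate block gave 327, 1024, 726 and 5043 calls in the 4 comparisons, against 140, 360, 276 and 2949. Median centring, which moved the median of all genes by −0.24 in the daf-2 comparison, gave 37, 99, 59 and 1631. Without a filter there were 49, 162, 46 and 2212, and with only the groups compared 0, 93, 10 and 2288. Detection limits the values of members that were well above background on few arrays of sets A and B, which rest on signals near background.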

Other observations

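Dim members shared arrays across groups. The scl-15 signal was −4.45 on the 3 h array of set A, −3.97 on the daf-2 array of set A, −3.02 on the 3 h array of set 1 and −3.95 on the 12 h array of set 1, and between −7.57 and −6.86 on the other 8 arrays. On those 4 arrays scl-8 was −5.22, −4.89, −3.66 and −4.40, and between −7.52 and −6.38 on the other 8. On the 3 h and 12 h arrays of set 1, scl-9 was −4.71 and −4.56 and scl-7 was −5.06 and −5.76, above each gene's other 10 arrays. These genes were picked after their values were seen, and no comparison was made.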
